A study of Rattus norvegicus with 12 samples.

Results

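The comparison described here was that of the lumbar mammary gland at day 28 of life between female Wistar rat offspring of dams fed a low protein diet (LP) and of dams fed a normal protein diet (NP). It held 6 of the 12 arrays of the series, 3 LP and 3 NP, chosen by their labels. The LP dams had received a diet with 8.8% protein and the NP dams one with 17.0% protein. These diets were given during pregnancy only. All offspring were suckled in litters reduced to 6 females, were weaned at day 21 and then received the same standard chow, so that by the labels the groups differed only in the diet of the mother before birth. The glands were whole lumbar glands (with their fat pad) from which visible lymph nodes had been removed, and each array carried RNA of 1 sample labelled with a single dye. The NP arrays were those labelled 4f, 5f and 6f, and the LP arrays 4f, 6f and 7f, and values are given in this order throughout. No source used here says whether animals of a group came from separate litters, so p-values measure the spread between these 3 samples only.

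The mammary gland of the rat at this age is a branching tree of ducts in a pad of fat. Its ducts have an inner luminal and an outer basal or myoepithelial layer, and they grow from terminal end buds, where cells divide, into a stroma of adipocytes, fibroblasts, vessels and immune cells. Every cell of these kinds also runs a circadian clock, in which Bmal1 with Clock or Npas2 drives the Per, Cry and Rev-erb genes through E-boxes, and the Rev-erb proteins in turn repress Bmal1, Npas2 and Nfil3. In RNA of a whole gland, fewer cells of a type and less RNA per cell cannot be told apart.

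A level below is the log2 signal of a probe minus the 75th percentile of its array, and a difference is the mean LP level minus the mean NP level with its standard error (SE, n = 3 per group). Levels are compared between arrays for the same gene, never between genes. Of 26422 genes on the array, 19424 passed the filter (well above background on 3 or more of the 6 arrays) and were tested. The median difference over these genes was -0.05, with 42.6% of them above and 57.4% below 0. With limma, no gene had an adjusted p under 0.05 (the lowest was 0.615), so a gene is called below where its unadjusted p was under 0.05, which 306 genes (1.58%) passed with a higher and 1155 genes (5.95%) with a lower level in LP. Every called gene had an adjusted p of 0.615. The groups did not overlap, with LP above NP, for 873 genes (4.49%) and with LP below NP for 2421 genes (12.5%). With 3 arrays against 3, an exact permutation test cannot give a p below 0.1. The arrays correlated with each other at a median r of 0.984 to 0.991, between 74.8% and 77.9% of spots were well above background, and none was saturated. The defining genes of epithelium and fat, Krt8, Krt14, Epcam and Adipoq, were well above background on all 6 arrays. NP 4f stood apart from the other arrays, at -67.9 on a first principal component (46.5% of the variance) on which the others lay between 2.71 and 31.4. All 6 arrays lay on 1 slide, with the NP arrays and LP 4f in its upper row and LP 6f and LP 7f in its lower row, so row and diet were partly confounded. With the row as a covariate, the diet difference is that of LP 4f alone from the 3 NP arrays. Such a fit is not a check on all 6 arrays, and no calls are counted from it below.

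Whole gene programmes differed in both directions. The medians of the epithelial, cell cycle and matrix lists were positive and those of the lymphocyte, MHC class II and ribosomal protein lists negative, while the clock split into a lower and a higher arm. Of 34 lists, 25 kept the sign of their median when each of the 6 arrays was left out in turn. At the level of single genes, however, 74 genes (0.381%) remained higher and 240 (1.24%) remained lower at an unadjusted p under 0.05 without each of the 6 arrays. Of the 14 genes of the lower clock arm 6 did so (42.9%), and 2 of 5 genes of the higher clock arm (40.0%). Among all other lists, this was seen for Csn1s1 of 10 milk genes, Dpt of 35 matrix genes and Ccr7 of 10 lymph node genes, and for no other gene.

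**Figure D1:**
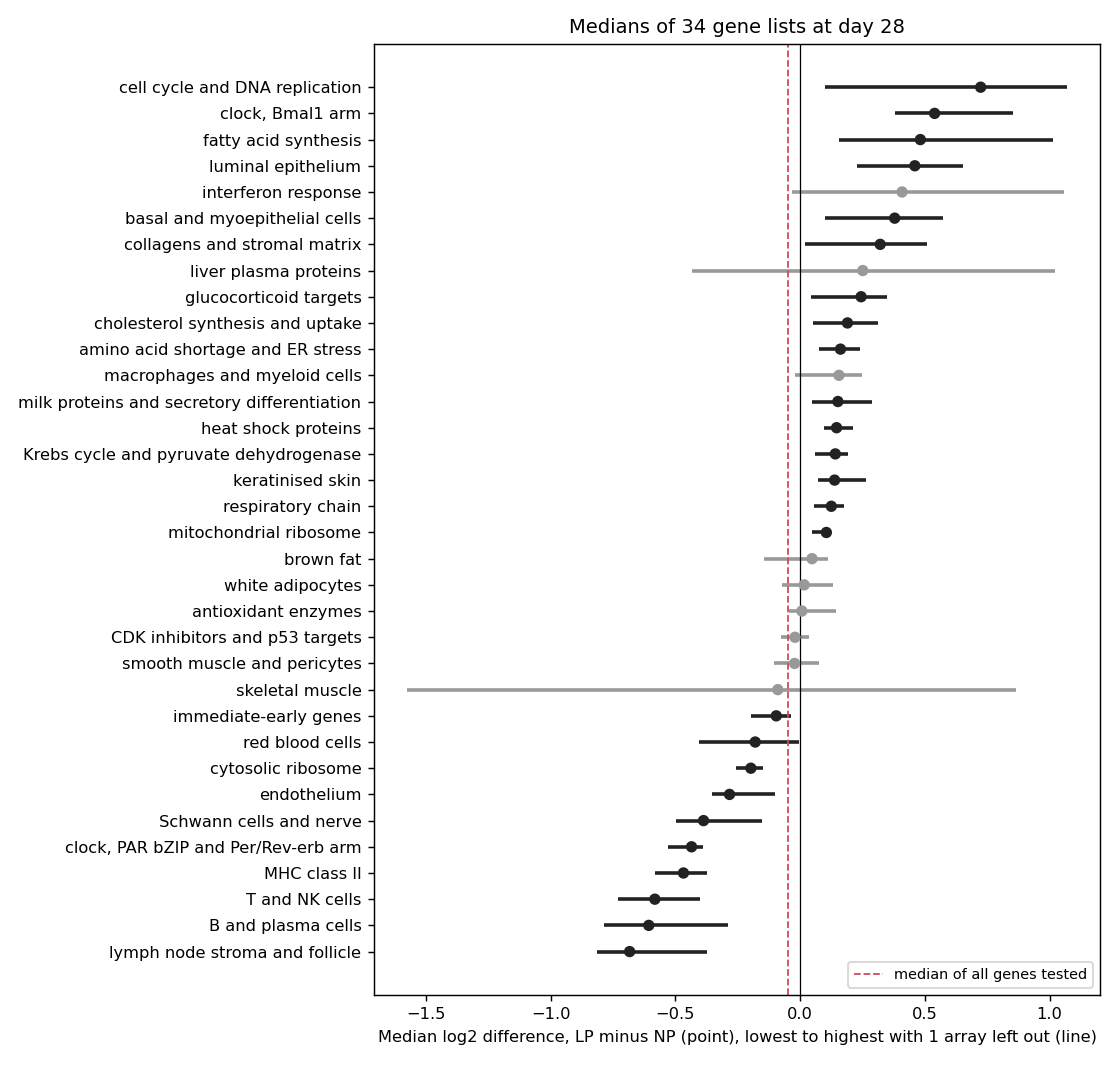
Median log2 difference (LP minus NP, horizontal axis) of each gene list at day 28, with a bar from the lowest to the highest median when each array is left out in turn; the dashed line marks the median of all tested genes at -0.05, and grey marks lists whose bar crosses 0. The lower clock arm, T and NK, B and plasma cell and lymph node lists stay below 0, the luminal, basal and higher clock lists stay above 0, and the interferon and skeletal muscle bars cross 0.

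Clock genes formed the list with the largest share of called members. Because lists and members were chosen with earlier results of these data known, this rank is not a separate test. The lower arm holds the Per and Rev-erb genes, the PAR bZIP factors (Dbp, Tef, Hlf) and other E-box targets, and 8 of its 14 genes had a lower level in LP at an unadjusted p under 0.05 (57.1%, beside 5.95% of all genes). None was called higher. Its median difference was -0.44, and between -0.53 and -0.39 with each array left out, when 6 to 8 genes were called. Per3 and Bhlhe41 were the called genes that did not keep their call without each array. With normexp background correction the median was -0.22 with 3 genes called, and with the row of the slide as a covariate it was -0.52. Averaged over the list and centred on the 6 arrays, the NP arrays lay at 0.19, 0.23 and 0.35 and the LP arrays at -0.38, -0.32 and -0.07, with no overlap. The opposite arm, of genes that Rev-erb proteins repress, had a median of 0.54 (0.38 to 0.85 with each array left out), and its arrays lay at 0.03, -0.43 and -0.28 for NP and at 0.31, 0.22 and 0.15 for LP.

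The sequences of 4 clock promoters are shown because they cover both arms and each hold a clock motif within the 250 bases before the start given by RefSeq (assembly GRCr8). Capitals mark the E-box CACGTG in the first 3 and the core AGGTCA of ROR and Rev-erb sites in Bmal1, both searched on either strand, and each line runs 5' to 3' on the strand of the gene. The windows are Ciart chr2:186112247-186112496 (minus strand), Tef chr7:115206577-115206826 (plus strand), Bhlhe41 chr4:180569356-180569605 (minus strand) and Bmal1 chr1:176766078-176766327 (plus strand).
Ciart: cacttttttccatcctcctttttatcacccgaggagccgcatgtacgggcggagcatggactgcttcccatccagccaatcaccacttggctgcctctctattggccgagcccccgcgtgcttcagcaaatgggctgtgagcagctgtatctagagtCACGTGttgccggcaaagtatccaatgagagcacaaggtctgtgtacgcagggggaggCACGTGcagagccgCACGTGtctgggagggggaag
Tef: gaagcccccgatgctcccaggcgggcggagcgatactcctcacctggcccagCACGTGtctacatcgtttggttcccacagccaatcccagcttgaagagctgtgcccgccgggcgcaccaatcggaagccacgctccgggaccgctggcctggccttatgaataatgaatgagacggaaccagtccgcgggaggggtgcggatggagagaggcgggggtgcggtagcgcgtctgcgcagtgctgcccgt
Bhlhe41: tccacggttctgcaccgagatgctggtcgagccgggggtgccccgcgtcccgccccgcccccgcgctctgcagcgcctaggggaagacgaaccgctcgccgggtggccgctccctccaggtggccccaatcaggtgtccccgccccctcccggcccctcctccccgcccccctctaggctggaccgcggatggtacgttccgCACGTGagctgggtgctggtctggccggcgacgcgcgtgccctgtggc
Bmal1: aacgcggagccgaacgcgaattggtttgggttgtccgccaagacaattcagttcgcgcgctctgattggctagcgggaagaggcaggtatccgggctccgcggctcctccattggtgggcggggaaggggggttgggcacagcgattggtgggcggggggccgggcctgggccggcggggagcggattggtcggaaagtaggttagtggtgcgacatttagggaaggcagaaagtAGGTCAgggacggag
The Ciart window held 3 E-boxes, which began 93, 35 and 21 bases before the start. The single E-boxes of Tef and Bhlhe41 began 198 and 48 bases before it, and the AGGTCA of Bmal1 began 15 bases before it. Of the 12 promoters of the lower arm found in the RefSeq table, 4 held CACGTG (33.3%), against 5.79% of 27457 promoters of all genes. Besides the 3 shown, this was Bhlhe40, whose E-box began 220 bases before the start and which was not called. Because the arm was put together to hold E-box targets, this share was partly fixed in advance and nothing is read from it. The D-box TTATGTAA was in 1 of the 12 (8.33%, against 0.816%), and AGGTCA was in 2 of them (16.7%, against 13.7%). Of 4 promoters found for the higher arm, 1 held AGGTCA and none held CACGTG or TTATGTAA. These are matches of letters in a short window, and the windows of Nr1d1, Dbp and Per3 held no CACGTG.

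Nr1d1, which encodes the repressor Rev-erb alpha, lay at -0.93, -2.45 and -1.84 on the NP arrays and at -4.42, -4.42 and -2.78 on the LP arrays. Every LP array was below every NP array, and the difference was -2.13 ± 0.57 (4.39-fold lower, called). The probes of Nr1d1 lay at chr10:87543165-87543519 and of Dbp, below, at chr1:96178423-96178482 (rn4). Its relative Nr1d2 (Rev-erb beta) lay at -4.23, -4.29 and -4.20 in NP and at -5.12, -4.97 and -4.49 in LP, a difference of -0.62 ± 0.18 (called). Dbp, a PAR bZIP activator and a direct output of the clock, lay at 2.31, 2.63 and 2.77 in NP and at 1.25, 1.22 and 1.63 in LP. It was 2.30-fold lower in LP (-1.20 ± 0.18, called), and its other 2 probes gave -1.17 and -1.23. Tef, the second PAR bZIP gene, lay at 0.63, 0.61 and 0.73 in NP and at -0.65, -0.09 and 0.09 in LP, with a difference of -0.87 ± 0.21 (called). The third, Hlf, overlapped between the groups, with a difference of -0.24 ± 0.32.

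Ciart, a repressor of Clock and Bmal1 whose promoter is shown above, lay at -5.94, -6.04 and -5.67 in NP and at -6.83, -6.45 and -6.60 in LP. The difference was -0.74 ± 0.16 (called), with only 1 of the 3 LP arrays well above background. The repressor Bhlhe41 lay at -5.16, -4.33 and -4.51 in NP and at -5.32, -5.16 and -5.31 in LP (-0.60 ± 0.23, called), so that NP 4f nearly met the LP arrays. Cry2, a partner of the Per proteins, lay at -3.71, -3.62 and -3.62 in NP and at -4.04, -4.21 and -3.94 in LP (-0.41 ± 0.12, called). Per3 differed by -0.46 ± 0.15 (called), and its 2 other probes gave -0.78 and -0.70. Per1 and Per2, which also respond quickly to many signals, were not called, with differences of -0.35 ± 0.17 and -0.13 ± 0.29. The remaining 3 members, Bhlhe40, Usp2 and Wee1, had differences of 0.15, 0.16 and 0.25 with overlapping groups.

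In the other arm, Npas2, the alternative partner of Bmal1, lay at -1.30, -1.85 and -1.74 in NP and at -0.67, -1.12 and -0.91 in LP. The difference was 0.73 ± 0.20 (called), but a second, dimmer probe of Npas2 gave 0.04 ± 0.16. Nfil3, which competes with Dbp for the same D-boxes, lay at -2.55, -3.13 and -2.79 in NP and at -2.13, -1.95 and -2.22 in LP (0.72 ± 0.18, called). Bmal1 itself lay at -0.31, -1.26 and -1.26 in NP and at -0.25, -0.53 and -0.43 in LP. NP 4f reached the LP level, and the difference of 0.54 ± 0.28 was not called. Cry1 and Clock differed by 0.24 ± 0.18 and 0.02 ± 0.15. The hour of the day at which the glands were taken is not given in the sources used here, and its part in the clock result was not tested.

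**Figure D2:**
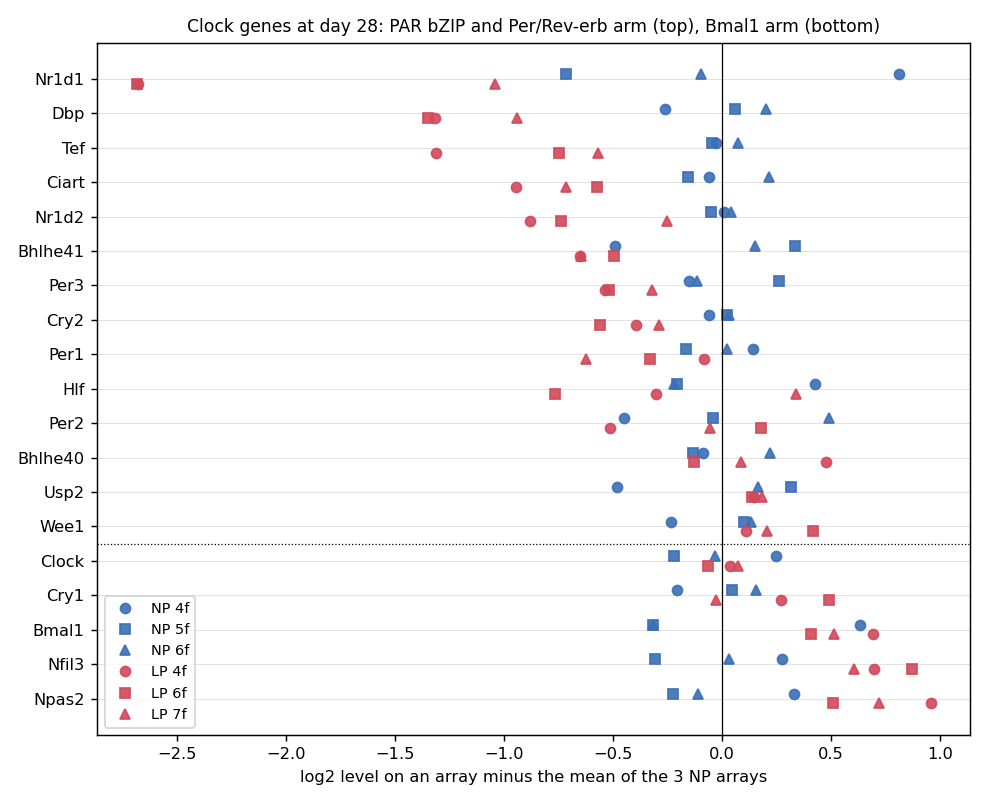
Level of the 19 clock genes on each of the 6 day 28 arrays (log2, minus the mean of the 3 NP arrays, horizontal axis; the dotted line divides the arms; blue NP, red LP, symbols mark the array). The LP points lie left of all NP points for Nr1d1, Dbp and Tef and right of them for Npas2 and Nfil3, while NP 4f falls among the LP points for Bmal1.

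The luminal epithelium list had a median difference of 0.46, with 31 of its 34 genes above 0. An unadjusted p under 0.05 was reached by 5 genes, all higher in LP (14.7%, beside 1.58% of all genes), and 14 genes had every LP array above every NP array (41.2%, beside 4.49%). The list lay at -0.82, 0.16 and -0.06 on the NP arrays and at 0.16, 0.35 and 0.21 on the LP arrays, so that the groups only just separated and NP 4f was by far the lowest. Without NP 4f the median was 0.23, with 30 of 34 genes above 0, and 7 were called higher and Marveld2 lower. No luminal gene was called without LP 7f. With the row of the slide as a covariate, the median was 0.45. With each array left out the median lay between 0.23 and 0.65.

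Epcam, the adhesion molecule of most simple epithelia, lay at 0.43, 1.38 and 1.25 in NP and at 1.71, 1.94 and 1.87 in LP. It was 1.77-fold higher in LP (0.82 ± 0.26, called), and the groups did not overlap. The membrane protease St14 (0.58 ± 0.20), the luminal transcription factor Foxa1 (0.67 ± 0.25), the tight junction gene Tjp3 (0.39 ± 0.15) and the splicing regulator Esrp2 (0.58 ± 0.23) were the other 4 called genes. The luminal keratins Krt8 and Krt18 had separate groups but were not called. Krt8 lay at -1.58, 0.20 and 0.13 in NP and at 0.40, 0.53 and 0.45 in LP (0.88 ± 0.48), and Krt18 differed by 0.64 ± 0.35. The distance between NP 5f or NP 6f and the LP arrays was small beside that of NP 4f from all others. Cdh1, which encodes E-cadherin, overlapped between the groups (0.44 ± 0.31). The largest difference of the list was that of Areg, the growth factor amphiregulin of ductal growth, named here with Prlr, the prolactin receptor, after their values were seen. Areg lay at -5.35, -0.90 and -1.05 in NP and at -0.85, 0.09 and -0.36 in LP (2.06 ± 1.20), and without NP 4f its difference was 0.60. Prlr lay at -3.50, -2.23 and -2.16 in NP and at -1.74, -1.80 and -1.76 in LP (0.87 ± 0.36). The groups of both were separate, though neither was called.

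The basal and myoepithelial list had a median of 0.38 (0.10 to 0.57 with each array left out), with 17 of 20 genes above 0. Of these 20 genes, 1 was called higher (5.0%, beside 1.58% of all genes) and 1 lower (5.0%, beside 5.95%). It lay at -0.90, 0.14 and 0.06 on the NP arrays and at 0.18, 0.33 and 0.18 on the LP arrays, nearly the same order as the luminal list. Perp, a desmosome gene, was called higher in LP (0.74 ± 0.30). Krt14 lay at -1.75, -0.55 and -0.25 in NP and at -0.06, 0.30 and -0.15 in LP (0.88 ± 0.39), and Krt5 differed by 0.88 ± 0.55, neither called. For Tp63, the transcription factor that maintains basal cells, the probes went different ways. The brighter probe lay at 2.07, 2.37 and 1.90 in NP and at 1.76, 1.73 and 1.66 in LP (-0.40 ± 0.15, called), whereas the dimmer one differed by 0.58 ± 0.31, and the mean of both by 0.09.

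Among milk protein and secretory genes, which alveolar luminal cells produce, 3 of 10 were called, all higher in LP (30.0%, beside 1.58% of all genes). Csn1s1, alpha-S1 casein, lay at 0.90, 2.35 and 1.86 in NP and at 2.80, 3.17 and 2.90 in LP and was 2.39-fold higher (1.26 ± 0.37, called), without overlap. Csn3, kappa casein, had the largest difference of the list at 2.44 ± 0.79 (called). Its levels were spread within both groups, at -2.88, -2.17 and 0.01 in NP and at 1.46, 0.86 and -0.06 in LP, so NP 6f and LP 7f met. Wap, whey acidic protein, lay at -2.24, -2.04 and -2.09 in NP and at -1.67, -0.96 and -1.78 in LP (0.65 ± 0.23, called). The median of the list was 0.15 (0.05 to 0.29 with each array left out). Of the 10 genes, 3 were below 0, and the lowest was Ltf (-0.56 ± 0.50, not called), given again below as a granulocyte gene.

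The cell cycle list had the highest median of all programmes, 0.72, with 55 of 57 genes above 0, yet none was called and none had separate groups. It lay at -1.46, 0.13 and 0.34 on the NP arrays and at 0.13, 0.44 and 0.41 on the LP arrays. NP 4f lay far below all other arrays. Without it the median was 0.10, 43 genes were above and 14 below 0, and the middle of the list lay between 0.00 and 0.24 (quartiles) in place of 0.41 and 0.94. Top2a, the topoisomerase of dividing cells, showed this at -2.62, -0.32 and -0.05 in NP against -0.37, 0.07 and -0.11 in LP (0.86 ± 0.67). Pcna, the clamp of the replication fork, lay at 0.51, 1.22 and 1.22 in NP and at 1.24, 1.30 and 1.13 in LP (0.24 ± 0.22), and the helicase subunit Mcm2 differed by 0.15 ± 0.27. Without NP 6f, 12 cell cycle genes were called higher, and with LP 7f left out together with NP 4f the median was 0.05.

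CDK inhibitors and p53 targets had a median of -0.02, with 7 of 17 genes above 0 (41.2%, beside 42.6% of all genes) and none called by the probe that stood for it. Cdkn1a, which encodes the inhibitor p21, lay at 2.65, 3.47 and 3.05 in NP and at 2.97, 2.94 and 2.96 in LP by its brighter probe (-0.10 ± 0.21). Its dimmer probe lay at -0.69, 0.02 and -0.56 in NP and at 0.48, 0.92 and 1.06 in LP, with separate groups (1.23 ± 0.24, called). Cdkn1b, which encodes p27, overlapped between the groups (-0.29 ± 0.27).

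**Figure D3:**
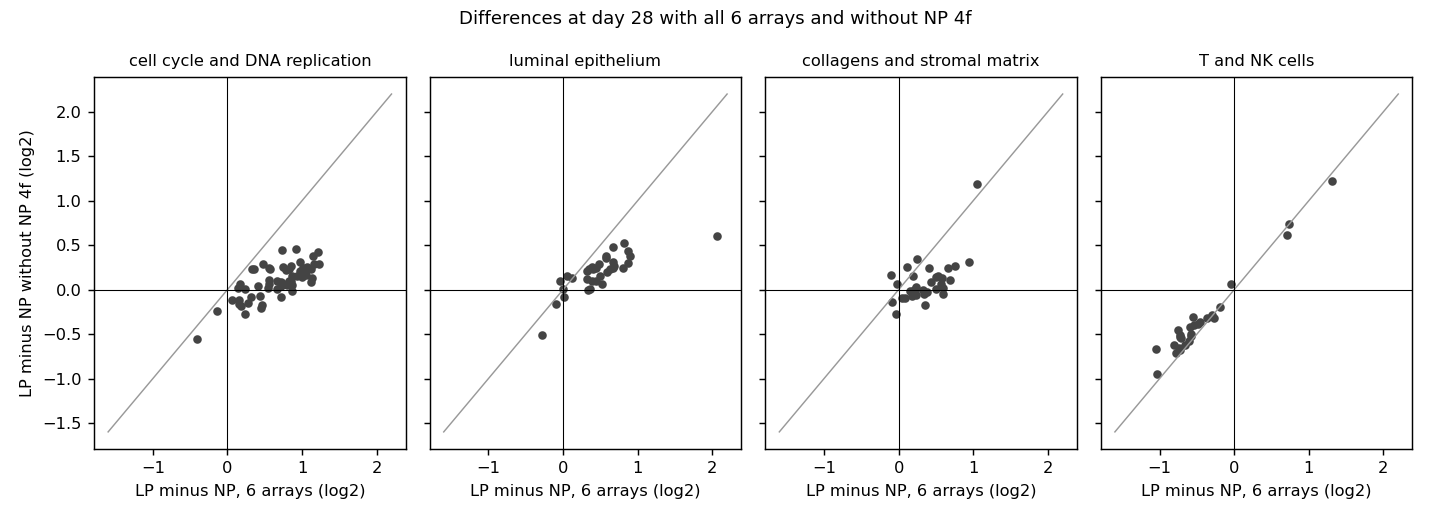
Difference of each gene (LP minus NP, log2) with all 6 arrays (horizontal axis) against the same without NP 4f (vertical axis), for the cell cycle, luminal, matrix and T and NK cell lists; each point is a gene and the diagonal marks equal values. The cell cycle and matrix points drop to near 0 on the vertical axis, the luminal points drop partly, and the T and NK points stay mostly below 0.

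Collagens and stromal matrix had a median of 0.32, with 31 of 35 genes above 0, and only Dpt was called (2.86%, beside 1.58% of all genes called higher). The list lay at -0.72, 0.00 and 0.19 on the NP arrays and at -0.01, 0.20 and 0.34 on the LP arrays. Without NP 4f the median was 0.02, with 20 genes above and 15 below 0. Dpt, dermatopontin, a small protein that binds collagen fibrils, went its own way. It lay at 2.47, 2.32 and 1.80 in NP and at 3.09, 3.18 and 3.46 in LP, 2.07-fold higher (1.05 ± 0.21, called), with NP 4f the highest of the NP arrays. The fibrillar collagens Col1a1 and Col3a1 differed by -0.03 ± 0.25 and 0.19 ± 0.24.

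**Figure D4:**
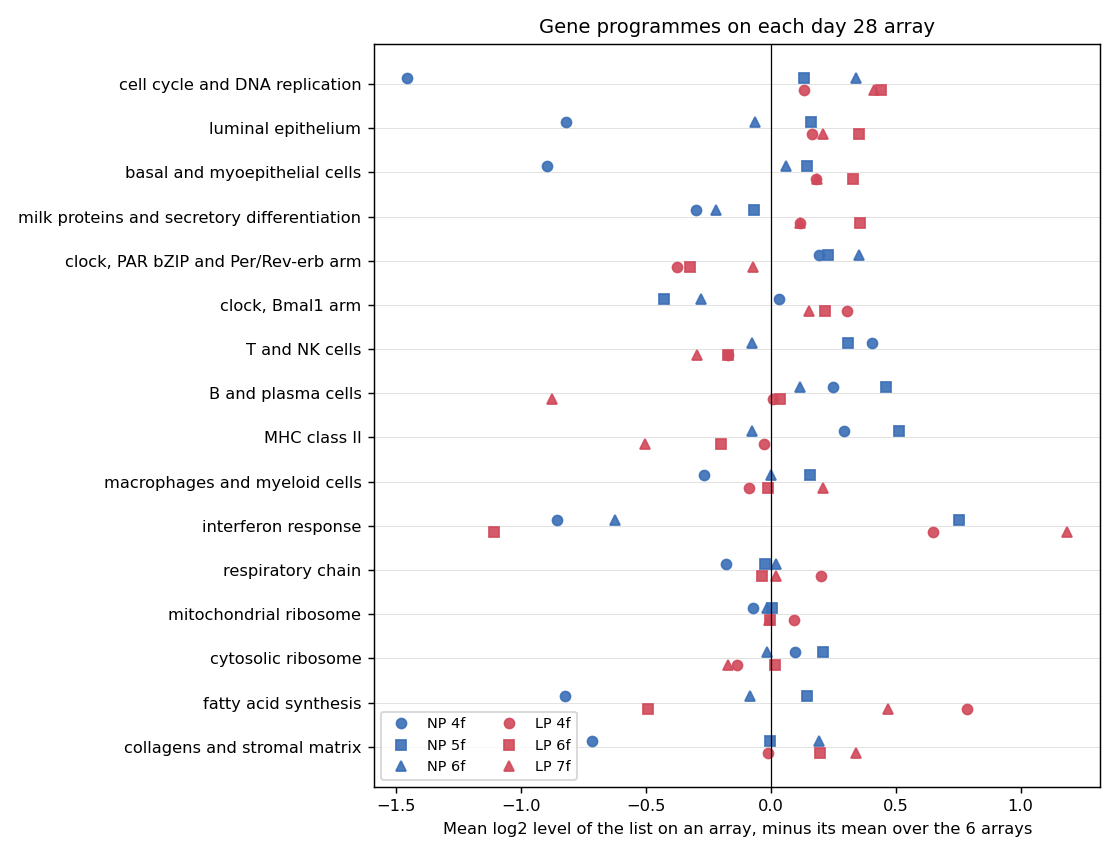
Mean level of each gene list on each of the 6 day 28 arrays, centred on the 6 arrays (log2, horizontal axis; blue NP, red LP, symbols mark the array). NP 4f lies far left for the cell cycle, luminal, basal and matrix lists, the clock lists separate by diet, and the interferon list divides NP 5f, LP 4f and LP 7f from the other 3 arrays.

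Genes of lymphocytes were lower in LP. Of 27 T and NK cell genes, 24 were below 0 with a median of -0.58, 14 were called lower (51.9%, beside 5.95% of all genes) and 17 had every LP array below every NP array (63.0%, beside 12.5%). The list lay at 0.40, 0.31 and -0.08 on the NP arrays and at -0.17, -0.17 and -0.30 on the LP arrays. The median kept its sign with each array left out (-0.73 to -0.40), but the calls did not keep their number: 3 genes were called without NP 4f, 1 without NP 5f and 3 without LP 7f. With the row of the slide as a covariate the median was -0.34.

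Cd3e, a chain of the T cell receptor complex, lay at -0.08, 0.03 and -0.39 in NP and at -0.58, -0.61 and -1.07 in LP (-0.61 ± 0.19, called). Cd27, a costimulatory receptor, lay at 2.51, 2.16 and 1.66 in NP and at 1.23, 1.47 and 1.43 in LP (-0.73 ± 0.23, called). In both the groups were separate, with NP 6f next to the LP arrays. The adaptor Lat and the NK receptor Klrd1 were called lower (-0.73 ± 0.23 and -1.04 ± 0.34). Cd8a was called lower (-0.36 ± 0.14), and Cd4 was not (-0.19 ± 0.13). The other 9 called genes, of which Cd3d, Zap70 and Cd96 are named after their values were seen, differed by between -1.04 and -0.46. The 3 genes above 0 were the cytotoxic granule genes Gzma, Gzmk and Nkg7, named here after their values were seen. Gzma lay at -2.87, -1.99 and -3.18 in NP and at -2.32, -2.40 and 0.62 in LP, and all 3 were high on LP 7f alone.

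Of 18 B and plasma cell genes, 17 were below 0, with a median of -0.61 (-0.78 to -0.29 with each array left out), and 7 were called lower (38.9%, beside 5.95% of all genes). The arrays lay at 0.25, 0.46 and 0.12 for NP and at 0.01, 0.04 and -0.88 for LP, so LP 7f was the lowest by a wide margin. No B cell gene was called without NP 4f or without NP 5f. With the row of the slide as a covariate, the median was -0.21. The scaffold Bank1 lay at -1.73, -1.59 and -1.85 in NP and at -2.21, -2.31 and -3.25 in LP (-0.87 ± 0.29, called). The called genes also included the transcription cofactor Pou2af1 (-0.61 ± 0.22) and the survival receptor Tnfrsf13c (-0.74 ± 0.27). Cd79b, a signalling chain of the B cell receptor, differed by -1.06 ± 0.43 (called), with LP 7f at -0.80 and the other LP arrays at 0.85 and 0.59. Ms4a1, which encodes CD20, overlapped between the groups (-0.36 ± 0.34).

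All 10 MHC class II genes were below 0, with a median of -0.47 (-0.58 to -0.37 with each array left out), and 3 were called lower (30.0%, beside 5.95% of all genes). None of the 3 was called without NP 5f or without LP 7f. With the slide row as a covariate, the median was -0.34. Cd74, the invariant chain, lay at 4.86, 5.08 and 4.57 in NP and at 4.40, 4.52 and 4.16 in LP (-0.48 ± 0.17, called). The class II chain RT1-Bb and the peptide exchange factor RT1-DMb were the other called genes (-0.46 ± 0.18 and -0.30 ± 0.12), and RT1-Da differed by -0.38 ± 0.19. In the list of lymph node stroma and follicle all 10 genes were below 0, with a median of -0.68 (-0.82 to -0.37 with each array left out). With the slide row as a covariate its median was -0.36. Its arrays lay at 0.44, 0.39 and 0.09 for NP and at 0.05, -0.07 and -0.90 for LP, and 3 of its genes were called lower (30.0%, beside 5.95% of all genes). Of its members, Ccr7, the homing receptor of lymphocytes to nodes, lay at -1.18, -1.10 and -1.57 in NP and at -1.79, -1.91 and -2.09 in LP (-0.65 ± 0.17, called). Cxcl13 and Ccl19, chemokines of follicles and T cell zones, overlapped between the groups and were not called (-0.26 ± 0.24 and -0.22 ± 0.28). Named after their values were seen, the cytokines Lta and Ltb were also called lower (-0.85 ± 0.33 and -0.78 ± 0.27), and all 10 genes of the list passed the filter. The part of lymph node tissue in the lymphocyte result was not tested.

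The median of macrophage and myeloid genes was 0.16 (-0.02 to 0.25 with each array left out, and -0.07 with the slide row as a covariate), with 17 of 23 genes above 0 and none called by the probe that stood for it. Cd68 and Csf1r, markers of macrophages, differed by 0.13 ± 0.25 and -0.06 ± 0.19, and a second, dimmer probe of Csf1r by -0.36 ± 0.15 (called, with separate groups). The scavenger receptor Marco, named after its values were seen, lay at -5.39 on LP 7f and between -0.81 and 0.32 on the other 5 arrays.

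The 4 defensin genes described here gave lower signals in LP. They and the granulocyte genes given after them lie outside the rule for named genes, except Defa10, and were chosen after their values were seen. Np4 lay at -1.57, -3.24 and -3.44 on the NP arrays and at -7.30, -8.91 and -8.47 on the LP arrays, none of which was well above background. Each LP array was then set to the lowest signal that any of its spots had while well above background, or to its own level where higher. By this measure Np4 was 15.3-fold lower in LP. The limit for a given probe may lie higher, so this is not a strict bound. Defa5, at -1.88, -3.95 and -4.01 in NP, was likewise well above background on NP arrays only and 10.6-fold lower by the same measure. RatNP-3b, at -2.09, -4.02 and -4.19 in NP, was 9.48-fold lower by it. No LP array had it well above background either. These 3 genes entered the fit only through the NP arrays, with an adjusted p of 0.615 by limma, and no call is read from it. Defa10, measured on all 6 arrays, lay at -3.09, -4.57 and -4.63 in NP and at -6.06, -6.66 and -5.67 in LP (-2.03 ± 0.47, called). NP 4f was the highest array for all 4. These genes are relatives of 1 family, so their probes may bind the same transcripts, which was not tested. They are not read as 4 separate observations.

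Genes of neutrophils did not separate in the same way. S100a8 lay at -1.17, -1.68 and -2.34 in NP and at -3.96, -1.82 and -3.14 in LP (-1.24 ± 0.58), with LP 6f among the NP arrays, and S100a9 differed by -1.06 ± 0.51. Camp and Ltf, of secondary granules, differed by -0.55 ± 0.34 and -0.56 ± 0.50. Mpo, myeloperoxidase, overlapped fully (0.18 ± 0.46). Some defensins are made in granulocyte precursors and are known from marrow and blood, and the source of the 4 signals was not tested.

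**Figure D5:**
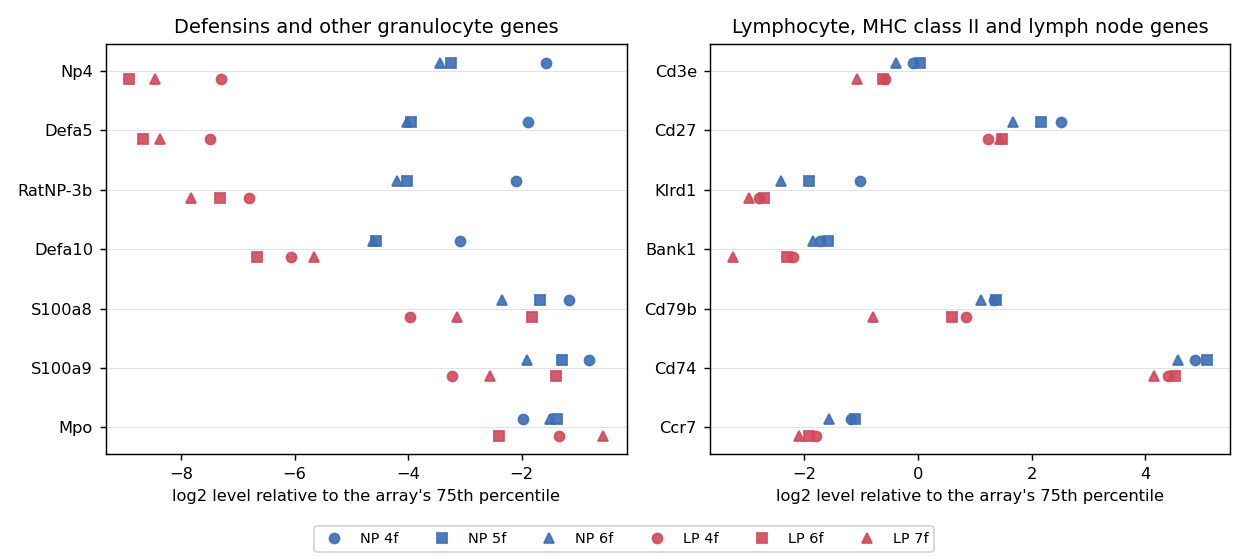
Level of defensin and granulocyte genes (left) and of lymphocyte, MHC class II and lymph node genes (right) on each of the 6 day 28 arrays (log2 relative to the 75th percentile of the array, horizontal axis; blue NP, red LP, symbols mark the array). For the 4 defensin genes all LP points lie left of all NP points, for S100a8 and Mpo the groups overlap, and on the right NP 6f lies nearest to the LP points for Cd3e, Cd27, Klrd1 and Cd74.

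The interferon response list varied more between arrays than between diets. Its median was 0.41 with 30 of 31 genes above 0, but the arrays lay at -0.86, 0.75 and -0.63 for NP and at 0.65, -1.11 and 1.19 for LP. NP 5f, LP 4f and LP 7f were high and the other 3 arrays low, and the median ranged from -0.03 to 1.06 with each array left out. Irf7, the master regulator of the response, lay at 0.68, 3.05 and 1.06 in NP and at 3.30, 0.62 and 4.41 in LP (1.18 ± 1.09). The single called gene (3.23%, beside 1.58% of all genes called higher) was Tlr3, a sensor of double-stranded RNA (1.17 ± 0.46). Tlr3 was highest on LP 7f (0.14) and LP 4f (-0.50) and between -2.04 and -1.62 on the other arrays.

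The mitochondrial lists had small positive medians. Of 72 respiratory chain genes, 64 were above 0 with a median of 0.12 (0.05 to 0.17 with each array left out). Only 1 was called higher (1.39%, beside 1.58% of all genes), and 10 had separate groups (13.9%, beside 4.49% of all genes). The arrays lay at -0.18, -0.02 and 0.02 for NP and at 0.20, -0.04 and 0.02 for LP, so the groups overlapped. The called gene was Ndufa4, a subunit of cytochrome c oxidase, at 4.01, 3.88 and 4.24 in NP and 4.45, 4.29 and 4.38 in LP (0.33 ± 0.13). Ndufs1, Cox5a and Atp5f1b, of complex I, complex IV and the ATP synthase, differed by 0.11 ± 0.16, 0.11 ± 0.14 and 0.13 ± 0.18. The Krebs cycle list had a median of 0.14 with 17 of 20 genes above 0 and none called, with Cs, citrate synthase, at 0.21 ± 0.17 and Sdha at -0.02 ± 0.14. The mitochondrial ribosome list had a median of 0.11 with 44 of 58 genes above 0. Of these only Mrpl50 was called higher (0.30 ± 0.12), a share of 1.72% beside 1.58% of all genes, while Mrpl12 and Mrps12 differed by 0.15 ± 0.18 and 0.11 ± 0.14.

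Ribosomal protein genes of the cytosol went the other way. All 59 were below 0 (as were 57.4% of all genes), with a median of -0.20 (-0.26 to -0.15 with each array left out). Of these, 13 had separate groups (22.0%, beside 12.5% of all genes). Only 1, Rpl13, was called lower (-0.55 ± 0.22), a share of 1.69% beside 5.95% of all genes. Rpl3 and Rps3 differed by -0.20 ± 0.12 and -0.19 ± 0.13. With quantile normalization the median was -0.03, so the size of this difference depended on the scaling. Many of these genes have processed copies in the genome, so probes may pick up relatives.

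Genes of fat and muscle differed little by diet or varied between arrays. White adipocyte genes had a median of 0.02 and brown fat genes one of 0.05, without a call. Adipoq, which encodes adiponectin, lay between 5.64 and 6.05 on all arrays (0.03 ± 0.14), Lep differed by 0.83 ± 0.58, and Ucp1, partly below background, by 0.52 ± 0.96. Fatty acid synthesis had a median of 0.48 with no call (0.16 without LP 4f, and 1.01 with 7 of 15 genes called higher without LP 6f), and its arrays lay at -0.83, 0.15 and -0.08 for NP and at 0.78, -0.49 and 0.47 for LP. Fasn and Acaca differed by 0.51 ± 0.61 and 0.54 ± 0.58. Cholesterol synthesis had a median of 0.19. Its 1 called gene (4.0%, beside 5.95% of all genes called lower), the squalene synthase Fdft1, was lower (-0.34 ± 0.14). Skeletal muscle genes ranged widely, at -0.71, 0.41 and 0.59 in NP and at -1.94, 3.15 and -1.51 in LP, with Ckm at 3.13 on LP 6f against -4.86 and -3.76 on the other LP arrays. Acta1 differed by 0.23 ± 1.60 and Myh7, below background on 1 LP array, by -1.01 ± 0.31 (called, a share of 4.0% beside 5.95% of all genes called lower).

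No stress or hormone programme held more than 2 called genes. Of 20 glucocorticoid targets, 2 were called higher (10%, beside 1.58% of all genes), and the median was 0.24 (0.04 without NP 6f to 0.35 without NP 4f). None was called higher without NP 4f, NP 6f, LP 6f or LP 7f. With the slide row as a covariate, the median was 0.10. Tsc22d3, which encodes the glucocorticoid-induced leucine zipper, lay at 1.24, 1.47 and 1.30 in NP and at 1.54, 1.92 and 1.87 in LP (0.44 ± 0.14, called), and the metallothionein Mt2A differed by 0.56 ± 0.20 (called). Fkbp5 was spread over the LP arrays at 0.42, 1.50 and 2.08, beside 0.72, 0.81 and 0.83 in NP (0.55 ± 0.40). Immediate-early genes had a median of -0.10. Klf2 was called lower (-0.40 ± 0.16), a share of 4.76% beside 5.95% of all genes. Fos and Egr1 differed by 0.08 ± 0.48 and -0.36 ± 0.35. Amino acid shortage and ER stress had a median of 0.16. Xbp1, a transcription factor of the unfolded protein response, was higher (0.45 ± 0.14, called), a share of 5.26% beside 1.58% of all genes. Asns and Hspa5 differed by 0.11 ± 0.21 and 0.46 ± 0.32. Prdx1, a peroxiredoxin, was the called gene among 21 antioxidant genes (0.43 ± 0.14), a share of 4.76% beside 1.58% of all genes called higher. The antioxidant list had a median of 0.01, with Sod1 and Cat at 0.03 ± 0.13 and 0.00 ± 0.21. Heat shock protein genes had a median of 0.15 and no call, with Hspa8 at 0.23 ± 0.21 and Hsph1 at 0.34 ± 0.24.

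Lists of other cell types that a gland sample can hold were also read. Endothelial genes had a median of -0.28, with 16 of 18 below 0 and 3 called lower (16.7%, beside 5.95% of all genes), which were Tie1, Vwf and Clec14a (-0.46, -0.32 and -0.49; named after their values were seen), while Pecam1 and Cdh5 differed by -0.40 ± 0.26 and 0.13 ± 0.17. Schwann cell genes had a median of -0.39 over 8 genes, with Mbp at -0.42 ± 0.37. Smooth muscle genes had a median of -0.02, with Tagln and Rgs5 at -0.02 ± 0.17 and -0.05 ± 0.20. Liver plasma protein genes had a median of 0.25 (-0.43 without LP 6f, 1.02 without LP 7f), with Alb at -0.34 ± 0.40 and Apoa1, partly below background, at -0.19 ± 0.93. Fgg, fibrinogen gamma, was called higher (1.63 ± 0.67) with its highest level on LP 6f. This was a share of 7.14% of the list, beside 1.58% of all genes called higher. Red blood cell genes had a median of -0.18 with Alas2 at -0.29 ± 0.26, and 4 keratinised skin genes one of 0.14 with Krt1, partly below background, at 0.31 ± 0.50.

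Among all genes well above background on the 6 arrays, the called genes with the largest differences were mixed in kind. After Csn3, the higher ones were Sh3d21 (1.79), Rprml (1.78), Plek2 (1.73), Fgg (1.63), Tmem139 (1.63), the eosinophil ribonuclease Ear1 (1.47) and the immunoglobulin gene Igh-6l1 (1.43). After Nr1d1 and Defa10, the lower ones were Mpped1 (-2.00), the cardiac myosin Myh6 (-1.66), the somatostatin receptor Sstr3 (-1.43), the kinase Srms (-1.38), Fcho1 (-1.36) and the phosphodiesterase subunit Pde6h (-1.34). Besides Nr1d1 and Defa10, only Tmem139, Igh-6l1 and Fcho1 of these genes kept their call without each array. The groups overlapped for Csn3, Sh3d21 and Fgg. NP 4f lay lowest for Plek2 (-3.94) and Rprml (-3.85), with the other NP arrays between -1.46 and -1.22. A second, dimmer probe of Mpped1 gave -0.57.

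At day 21, on the other 6 arrays of the series, the lower clock arm had a median of 0.30 with 11 of 14 genes above 0, against -0.44 at day 28. In a limma fit over all 12 arrays, the difference between days had an unadjusted p under 0.05 for 6 of these 14 genes, beside 445 of all 19424 genes (2.29%). No gene had an adjusted p under 0.05 (the lowest was 0.9999). Dbp differed by 0.39 at day 21 and by -1.20 at day 28 (change -1.59 ± 0.40), Tef by 0.33 and -0.87 (change -1.21 ± 0.33) and Nfil3 by -0.40 and 0.72 (change 1.13 ± 0.33). Each of these changes had an unadjusted p under 0.05 in that fit. The genes were already called at day 28, and that difference is part of the change. The T and NK cell and B and plasma cell lists had lower medians at day 21, of -1.74 and -2.01. At that age Np4 was low on all 3 LP arrays and on 1 of the 3 NP arrays, with NP at -1.23, -2.15 and -9.25 and LP at -6.07, -8.16 and -6.39. The days lay on separate slides, so day and slide cannot be told apart.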

How the data were processed

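Total RNA of lumbar mammary gland was measured on one-colour Agilent whole rat arrays. The deposited scanner files hold intensity per spot after the authors' background subtraction in Feature Extraction 10.7.3.1 (version from the submitters' processing notes). The deposited value table holds the same intensity values divided by the median of each array (tested against the scanner files) and was used, as log2, only as an alternative. From the scanner files, control spots and outlier spots were left out, spots of 1 probe were averaged, and log2 of the processed signal minus the 75th percentile of the array was taken as the level. A probe was kept where 3 or more of the 6 arrays had it well above background (22321 of 30367). Probe positions in the files refer to rn4. Of the probes, 17990 were named through RefSeq accessions. For the others, a gene number or a synonym held by only 1 gene was replaced by its RefSeq symbol. The rest kept the name of the array design. For each gene, the probe with the highest mean level stood for the gene.

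LP and NP were compared by linear models with moderated variance (limma 3.58.1, R 4.3.3; two-sided, Benjamini-Hochberg over all probes), with figures in matplotlib 3.10.9. The fit was tested on simulated data. Lists were described by counts and medians only, and 766 of 809 list entries were tested. Members and lists were chosen with earlier results of these data known. Named genes were the anchor genes of each list, up to 4 members of each programme list with the lowest p under 0.05, and the 8 largest called differences in each direction among genes well above background on all 6 arrays. Other genes were named after their values were seen, and some genes that the rule names are not reported here. Promoter sequences were taken from RefSeq (GRCr8). Alternatives were another background correction (normexp), other scalings, other filters, all 12 arrays in the fit, an intensity trend, the replicate number as a block, the row of the slide, the deposited table, the mean over all probes of a gene and leaving out each array. Leaving out NP 4f and LP 7f together was added after seeing the data. The number of arrays limits the precision.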

Additional observations from a re-analysis of the deposited data

How the results depend on the processing

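With every alternative tried, 0 genes had an adjusted p under 0.05 by limma. The count of genes with an unadjusted p under 0.05 differed by over 1.5 times as follows. Higher genes were 135 (main 306) with the row of the slide as a covariate, and lower genes 646 with normexp background, 299 with the slide row, 282 with the replicate block and 540 without NP 4f and LP 7f together (main 1155). With normexp background 381 genes were higher, so that the split was 381 against 646 in place of 306 against 1155. With each array left out, higher genes ranged from 167 to 664 and lower genes from 516 to 1503. The cause was not tested.

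The replicate numbers 4f and 6f occur in both groups, but no source says that they pair animals, and deviations of same-numbered samples correlated at 0.106 and 0.062. The other arrays have numbers that do not occur in both groups, so with the replicate block they add nothing to the diet difference. That difference is then the mean of LP minus NP within 4f and within 6f. Such a fit is not a check on all arrays. With this block, 282 genes were lower (main 1155) and 436 higher (main 306). The medians were 0.039 for CDK inhibitors, -0.34 for T and NK cells, 0.013 for ER stress and 1.20 for liver genes. Apoa1 gave 1.04 (main -0.19).

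The following medians moved by more than 1 SD of the list's level between arrays of a group, or turned a sign that held with each array left out. With normexp background, the lower clock arm was at -0.22, ER stress at 0.064 and Schwann cells at -0.25. With the slide row, T and NK cells were at -0.34, B and plasma cells at -0.21, macrophages at -0.072, the respiratory chain at 0.26, fatty acid synthesis at 1.16, antioxidant enzymes at 0.093 and Schwann cells at -0.19. With NP 4f and LP 7f both left out, CDK inhibitors were at -0.050, the higher clock arm at 0.87, T and NK cells at -0.31, macrophages at -0.083, the mitochondrial ribosome at 0.047, matrix at -0.036 (main 0.32), ER stress at 0.0026, endothelium at -0.084, Schwann cells at -0.16, red blood cells at -0.47 and lymph node at -0.27. Array median scaling gave -0.046 for CDK inhibitors, quantile normalization -0.034 for the cytosolic ribosome, and probes well above background on all 6 arrays -0.034 for keratinised skin. Lists with a wider spread moved further but by less than 1 SD, such as skeletal muscle at -1.92 with the slide row (main -0.09) and, with NP 4f and LP 7f left out, interferon at -0.27 (main 0.41) and the cell cycle at 0.049 (main 0.72).

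With each array left out, medians that moved by more than 1 SD ranged from -0.076 to 0.036 for CDK inhibitors, 0.046 to 0.29 for milk genes, 0.38 to 0.85 for the higher clock arm, 0.046 to 0.13 for the mitochondrial ribosome, -0.044 to 0.15 for antioxidant enzymes, -0.35 to -0.10 for endothelium and -0.50 to -0.15 for Schwann cells. Averaging all probes of a gene gave Cdkn1a 0.57 (main -0.10) and Tp63 0.092 (main -0.40). Acta1 ranged from -1.68 (without LP 6f) to 1.30 (without LP 4f; main 0.23). The number of arrays and probes near background limit all other values.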
